A study of Mus musculus with 60 samples.

Results

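The collagen genes were the gene rows whose symbol has the form of a collagen alpha chain (Col, a type number, the letter a and a chain number). There were 44 such rows among the 24982 gene rows of each of 2 expression tables. A gene was kept in a table when it reached 1 FPKM (fragments scaled to transcript length and to the fragments mapped in the library, a level per length) in at least 3 libraries, which left 29 collagen genes in the first table and 26 in the second. All 26 were also among the 29, and Col8a2, Col9a2 and Col10a1 were kept in the first table alone. By class, 10 of 11 fibrillar genes, 5 of 8 basement membrane genes and, in the first and second table, 14 and 11 of 25 other collagen genes were kept. The 15 genes kept in neither table were Col4a3, Col4a4, Col4a6, Col6a4, Col6a5, Col6a6, Col8a1, Col13a1, Col14a1, Col17a1, Col19a1, Col22a1, Col24a1, Col25a1 and Col26a1. Near the limit, the third highest library stood at 1.41 FPKM for Col10a1 in the first table and at 1.09 for Col23a1 in the second, both kept, and at 0.97 for Col8a2 and 0.96 for Col8a1 in the second table, neither kept.

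The cells were C3H10T1/2, a mouse mesenchymal line that can form fat cells, and the series title names TET1, an enzyme that oxidises methylated cytosine, in that process. Confluent cells were switched at day 0 to medium with serum, dexamethasone, IBMX, insulin, rosiglitazone and T3, and from day 2 were kept in serum and insulin. The first table held cells labelled WT and Tet1-KO, and the second held cells labelled 23-NC, 23-Tet1 and 23-CATA, names that the labels do not explain, with 3 libraries of each at days 0, 2, 4 and 6 (60 libraries in 20 groups). The labels do not say how the knockout or the other populations were made, whether any is a single clone, or whether replicates came from separate cultures, which leaves each p-value as a measure of the scatter among these libraries, which may be technical.

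Collagens are the main structural proteins of the extracellular matrix, built as triple helices of alpha chains. Fibrillar collagens (types I, II, III, V, XI, XXIV and XXVII here) form the fibres of connective tissue and cartilage, type IV forms the mesh of basement membranes, to which types XV and XVIII are attached, and type VI forms beaded filaments around cells. Fibroblast-like precursors make mostly fibrillar collagen, whereas a mature fat cell sits in a basement membrane with type VI collagen around it.

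Promoter letters are shown for 3 loci on which the results below turn, as RefSeq gives them on GRCm38.p6. Capitals mark the 3 motifs that were searched, each on both strands, namely the CCAAT box, the GC box GGGCGG (the same letters on the other strand appear as CCGCCC) and the TATA box TATAAA. Col4a1 and Col4a2, the chains of the commonest type IV collagen, are transcribed away from each other and share 1 control region on chromosome 8, with annotated starts 21 bases apart and overlapping. The stretch shown for them is a site of 30 bases upstream of the Col4a2 start and inside the first exon of Col4a1. It was cut around a CCAAT match, so that it holds CCAAT by choice. Col1a2 and Col3a1 encode chains of the 2 main fibrillar collagens. The stretches shown are the longest parts of their RefSeq windows outside annotated exons of coding transcripts. The Col1a2 stretch lies inside the annotated gene, which starts at 4504814, between exons. It leaves out the bases next to the RefSeq start, in a window that ends at 4505667.
Col4a1 and Col4a2, chr8:11312757-11312786, plus strand: CCGCCCgaggagctccCCAATttgttggcg
Col1a2, chr6:4505370-4505492, plus strand: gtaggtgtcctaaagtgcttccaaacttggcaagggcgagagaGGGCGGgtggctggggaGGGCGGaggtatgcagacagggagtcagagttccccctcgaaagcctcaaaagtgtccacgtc
Col3a1, chr1:45311288-45311537, plus strand: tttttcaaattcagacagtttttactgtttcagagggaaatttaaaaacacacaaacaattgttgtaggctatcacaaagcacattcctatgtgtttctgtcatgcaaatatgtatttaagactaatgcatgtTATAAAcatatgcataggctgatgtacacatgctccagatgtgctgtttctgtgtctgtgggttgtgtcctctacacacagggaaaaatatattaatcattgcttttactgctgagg
The Col3a1 stretch held TATAAA once and neither other motif, the Col1a2 stretch held GGGCGG 2 times, and the type IV site held 1 CCGCCC beside the CCAAT it was cut around. The stretches are parts of longer windows. The full Col1a2 window of 300 bases held 2 CCAAT boxes outside the stretch shown, and the full Col4a2 window held 3 GC boxes and 1 CCAAT box. RefSeq windows of 300 bases (250 before and 50 after a start) were at hand for 24 of the 29 kept genes, 27 windows in all. Of these, 10 held the CCAAT letters (37.0%, against 37.4% of all 32851 windows), 17 the GGGCGG letters (63.0%, against 35.7%) and 3 the TATAAA letters (11.1%, against 13.6%). These are letter matches and were not tested further.

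Libraries of the first table summed to 612993 to 1060628 FPKM, those of the second to 503085 to 733105, and 13837 to 15063 genes were above 0 in 59 libraries. The other library, Tet1-KO day 6 replicate 2, had 11805. Tet1 stood at 1.01 ± 0.12 FPKM (SD, n = 3) in WT and 0.25 ± 0.01 in Tet1-KO at day 0, and at 0.08 or less in both afterwards. Group means of Tet1 were 0.09 or less in 23-NC, 4.19 to 6.85 in 23-Tet1 and 5.98 to 18.9 in 23-CATA. In every population the summed level of 5 adipocyte markers (Adipoq, Fabp4, Plin1, Cebpa and Cidec) was lowest at day 0. Summed mesenchymal markers (Pdgfra, Pdgfrb, Thy1 and Vim) ran from 613.7 to 6176 FPKM over all libraries. Leukocyte, endothelial and epithelial markers each had 1 of 4 genes past the filter in either table. Their sums reached 132.3 (nearly all in Cd68, which is also a general lysosomal gene), 2.08 and 3.17 FPKM.

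Collagen took 0.08% to 1.03% of all FPKM in libraries with WT or Tet1-KO cells and 0.34% to 1.87% in the others. In each library the FPKM of all 44 collagen genes were summed and each type was expressed as a percentage of that sum. Multiplying a whole library by 1 factor cannot move this measure. At day 0 the fibrillar genes held most of it: 61.7% to 63.6% in the 3 WT libraries, 72.7% to 74.3% in Tet1-KO, 59.6% to 62.2% in 23-NC, 70.4% to 71.0% in 23-Tet1 and 50.9% to 51.6% in 23-CATA. At day 2 the fibrillar share in WT was 9.92% to 12.9%, while type VI held 71.0% to 74.1% and type IV 15.2% to 15.5%. No WT library of days 2, 4 or 6 came near the day 0 range, since the highest of them was 25.3% at day 6. The share also went down in the second table. The day 2 libraries stood at 37.3% to 38.5% in 23-NC, 36.0% to 36.8% in 23-Tet1 and 19.3% to 20.3% in 23-CATA. The collagen sum itself took different courses. In WT it was 5192 to 6325 FPKM at day 0 and 3789 to 4055 at day 2. In 23-Tet1 it was 4939 to 5538 and then 8625 to 9577, and in 23-NC 5518 to 5989 and then 7579 to 7718. In these 2 populations the share thus fell within a larger sum. In 23-CATA the sum was 5337 to 5613 and then 4414 to 5505. From day 4 to day 6 the fibrillar share in 23-NC went from a range of 17.1% to 17.9% to one of 33.9% to 36.2%. In 23-Tet1 over the same days it went from 19.2% to 20.3% down to 17.9% to 18.2%. The group mean was higher at day 6 than at day 4 in the other 4 populations, at 29.4% against 20.5% in 23-CATA, 22.8% against 8.81% in WT and, with libraries that overlapped, 45.2% against 30.4% in Tet1-KO. In Tet1-KO the libraries spread widely, with shares of 40.9%, 17.4% and 39.9% at day 2 and of 29.7%, 11.2% and 50.3% at day 4 in replicates 1, 2 and 3. Replicate 2 was the library nearest to WT on both days. It also had the most adipocyte marker FPKM of the 3, namely 48540 against 8243 and 10460 at day 2, and 85680 against 40120 and 23100 at day 4. The part of those markers in the collagen shares was not tested. In bulk RNA, fewer cells of a type and less RNA per cell cannot be told apart.

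**Figure D1:**
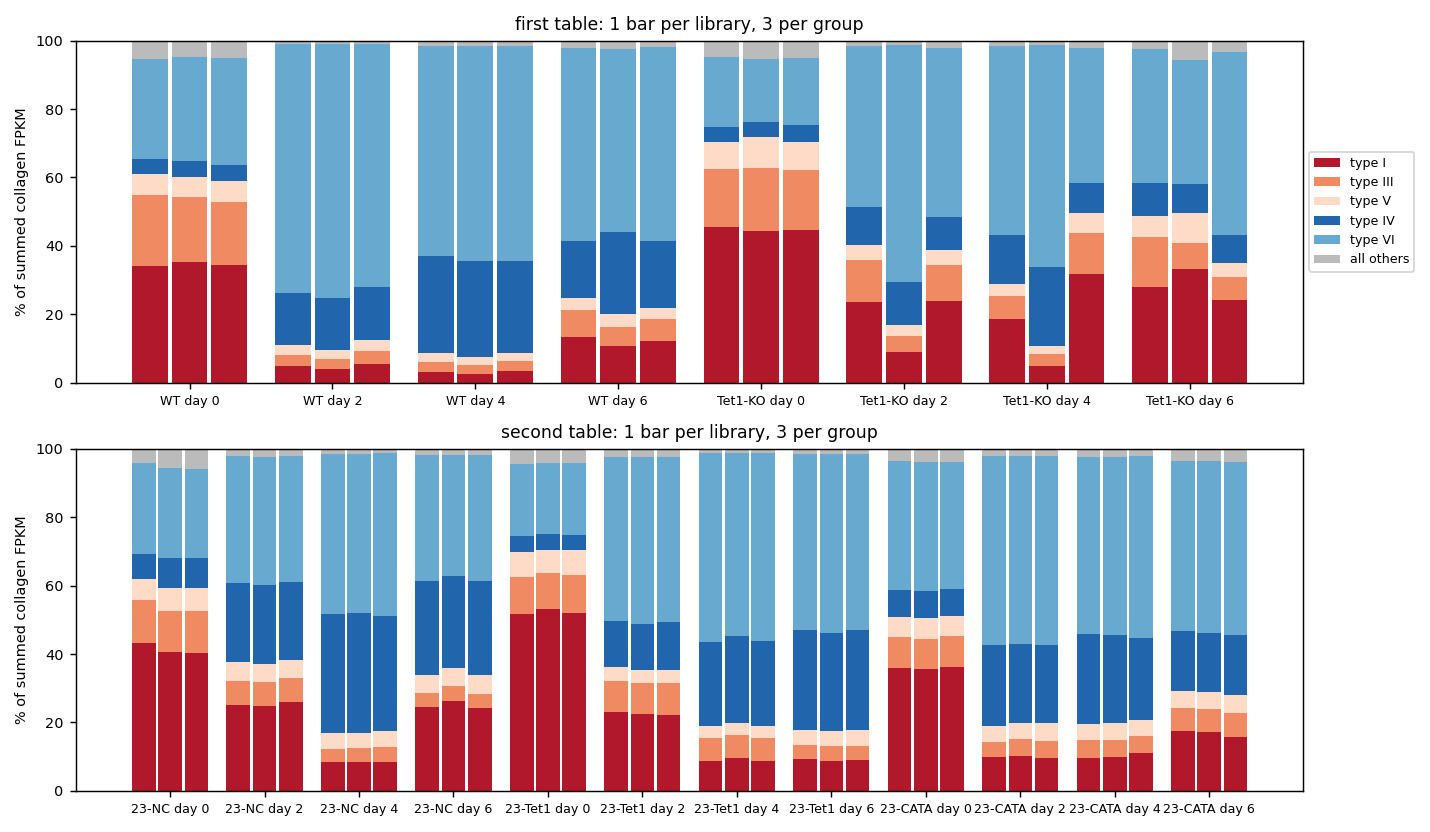
Percentage of the summed FPKM of all 44 collagen genes (vertical axis) held by types I, III, V, IV, VI and all others in each of the 60 libraries, 1 bar per library and 3 bars per group, first table above and second below. Types I, III and V fill most of each bar at day 0 and the smaller part of each later bar, and the bar of replicate 2 departs from the other Tet1-KO bars at days 2 and 4.

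Changes between groups were fitted with limma on log2(FPKM + 1). A gene was called when its p, adjusted by Benjamini-Hochberg across the 11911 genes tested in the first table or the 12231 in the second, was under 0.05. The pseudocount of 1 understates the change of genes near 0. Changes below are log2 differences ± SE from which the median over all tested genes in the same comparison was subtracted, whereas the test and its p belong to the change as fitted, without that subtraction. That median was -0.39 for WT at day 2 and -0.29 at day 6 against day 0, -0.10 and -0.38 for Tet1-KO, -0.16 and -0.22 for 23-CATA and -0.12 for 23-Tet1 at day 6. It was 0.17 and -0.20 for Tet1-KO against WT at days 2 and 6, 0.11 for 23-CATA against 23-NC at day 0 and -0.16 for 23-CATA against 23-Tet1 at day 4. In all other comparisons it lay within 0.1 of 0.

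In WT, 6 of the 29 collagen genes rose and 18 fell from day 0 to day 2, and 5 rose and 17 fell from day 0 to day 6. Among all genes tested the calls at day 2 were 18.9% higher with 43.2% lower, and at day 6 they were 19.2% with 37.4%. The median change of the 29 was -1.44 at day 2 and -0.90 at day 6. Of the 10 fibrillar genes, 9 fell at day 2, with a median of -2.67, and 1 rose. Of the 5 basement membrane genes 2 rose and 1 fell (median 1.5), and of the 14 others 3 rose and 8 fell.

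Col1a1 encodes the major chain of type I collagen, the bulk of bone, tendon and skin. In WT it stood at 649, 889 and 846 FPKM at day 0, at 54.1, 42.0 and 60.7 at day 2, at 20.2, 23.4 and 38.4 at day 4 and at 175, 64.5 and 153 at day 6. Day 0 lay far above every later library, and day 6 lay above days 2 and 4. The change at day 2 was -3.51 ± 0.66 (adjusted p = 4.9e-05) and at day 6 -2.41 ± 0.66 (adjusted p = 0.0019). Col1a2, its partner chain, went the same way, from 1115, 1334 and 1269 FPKM at day 0 to 128, 116 and 148 at day 2 (-2.84 ± 0.45). Col3a1, the single chain of type III collagen in soft tissue, went from 1081, 1201 and 1154 to 123, 117 and 146 (-2.76 ± 0.51). All 3 genes had their lowest WT libraries at day 4. The type V chains, which set the width of type I fibres, differed among themselves at day 2. Col5a2 fell from 157, 165 and 165 FPKM to 18.9, 18.7 and 21.8 (-2.58 ± 0.37), and Col5a3 from 23.3, 25.8 and 27.6 to 6.54, 7.49 and 6.50 (-1.37 ± 0.58). Col5a1 went from 140, 183 and 177 to 87.2, 83.2 and 87.7 FPKM at day 2, a fall of -0.54 ± 0.30 whose call was lost with median-ratio scaling (adjusted p = 0.114). By day 6 it was at 46.6, 21.6 and 36.4 (-1.99 ± 0.30).

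Chains best known from cartilage were also present in WT cells at day 0. Col2a1, the type II chain, stood at 94.5, 119 and 117 FPKM at day 0 and at 0.24, 0.40 and 0.41 at day 2 (-5.97 ± 0.30, adjusted p = 6.5e-12). Col11a1, a type XI chain that nucleates cartilage fibres, went from 15.8, 19.4 and 17.7 FPKM to 0.05, 0.01 and 0.09 (-3.75 ± 0.16). Day 0 and day 2 did not overlap for either gene. Col9a1, a type IX chain bound to the surface of type II fibres, fell by 3.42 ± 0.46, from a mean of 21.8 ± 0.28 FPKM to 0.62 ± 0.16. Its partners Col9a2 and Col9a3 fell as well, from 2.62 and 4.02 FPKM. Of 5 chondrocyte markers, Sox9, Cnmd and Comp passed the filter while Acan, the aggrecan core protein, and Matn1 did not. Their summed level in WT moved with these genes, from a range of 229.1 to 254.8 FPKM at day 0 to one of 7.18 to 10.8 at day 2, and its part in the result was not tested. Acan itself was listed at a mean of 0.003 FPKM or less in every group.

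The exception among the fibrillar genes was Col11a2, the second type XI chain, which was at 4.61, 4.19 and 5.34 FPKM at day 0 and at 14.2, 13.9 and 14.4 at day 2 (1.81 ± 0.23, adjusted p = 3.4e-05). Col11a1 and Col11a2, chains of one protein in cartilage, thus went in opposite directions in the same libraries.

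Among the basement membrane chains the pair Col4a1 and Col4a2 rose. Col4a1 stood at 135, 169 and 164 FPKM in WT at day 0, at 317, 352 and 341 at day 2, at 362, 406 and 460 at day 4 and at 314, 234 and 336 at day 6. Every later library was above every day 0 library. The change was 1.5 ± 0.36 at day 2 (adjusted p = 0.012) and 1.19 ± 0.36 at day 6 (adjusted p = 0.039), and with quantile normalisation neither was called (adjusted p = 0.105 and 0.146). The day 6 call also ended without the filter and when any of 5 libraries was left out. Col4a2 went from 80.0, 108 and 105 FPKM at day 0 to 256, 271 and 247 at day 2 (1.80 ± 0.48, adjusted p = 0.016), a call that was lost without replicate 1 of day 0 (adjusted p = 0.0549). Col4a5, an X-linked type IV chain, went the other way, from 14.7, 17.4 and 17.1 FPKM to 1.36, 1.27 and 1.48 at day 2 (-2.48 ± 0.22), and was at 10.3, 8.31 and 8.62 at day 6. Its neighbour Col4a6, on the opposite strand of the X chromosome with starts 1309 bases apart, had no group mean above 0.14 FPKM. Col15a1, a basement membrane collagen of vessels and muscle, was at 4.08, 5.84 and 5.31 FPKM at day 0 and 12.1, 14.7 and 11.3 at day 2 without passing the test (1.57 ± 0.75, adjusted p = 0.18). For Col18a1, which carries the endostatin fragment, the change of 0.17 ± 0.33 did not pass either.

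Type VI collagen is abundant around fat cells. Its chain Col6a3 rose from 87.9, 126 and 126 FPKM in WT at day 0 to 403, 416 and 407 at day 2 (2.25 ± 0.39, adjusted p = 0.0004) and was at 370, 193 and 362 at day 6 (1.68 ± 0.39). Col6a1 and Col6a2 were already among the highest collagen genes at day 0 (means of 992 ± 117 and 692 ± 95.4 FPKM). At day 2 they stood at 1103 ± 62.0 and 1306 ± 98.8, and neither change passed the test. Outside type VI, Col16a1, a fibril-associated collagen, fell from 53.1, 50.8 and 50.6 FPKM to 1.54, 1.12 and 2.14 (-3.96 ± 0.42). Col28a1 went from 16.3, 17.6 and 17.7 to 0.06, 0.03 and 0.04 (-3.73 ± 0.33), and Col12a1, which coats type I fibres, from 18.1, 24.7 and 24.7 to 1.57, 1.68 and 2.02 (-2.69 ± 0.55). Col7a1, the anchoring fibril collagen of skin, rose by 1.57 ± 0.18 at low levels, from a mean of 0.35 to 2.07 FPKM. Col20a1 rose by 0.96 ± 0.21 at day 2 and by 1.86 ± 0.21 at day 6. The WT adipocyte marker sum went from 59.8 to 187.8 FPKM at day 0 up to 50270 to 65690 at day 2, and the mesenchymal sum from 5184 to 5307 down to 906.1 to 1098. Their part in these changes was not tested.

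**Figure D2:**
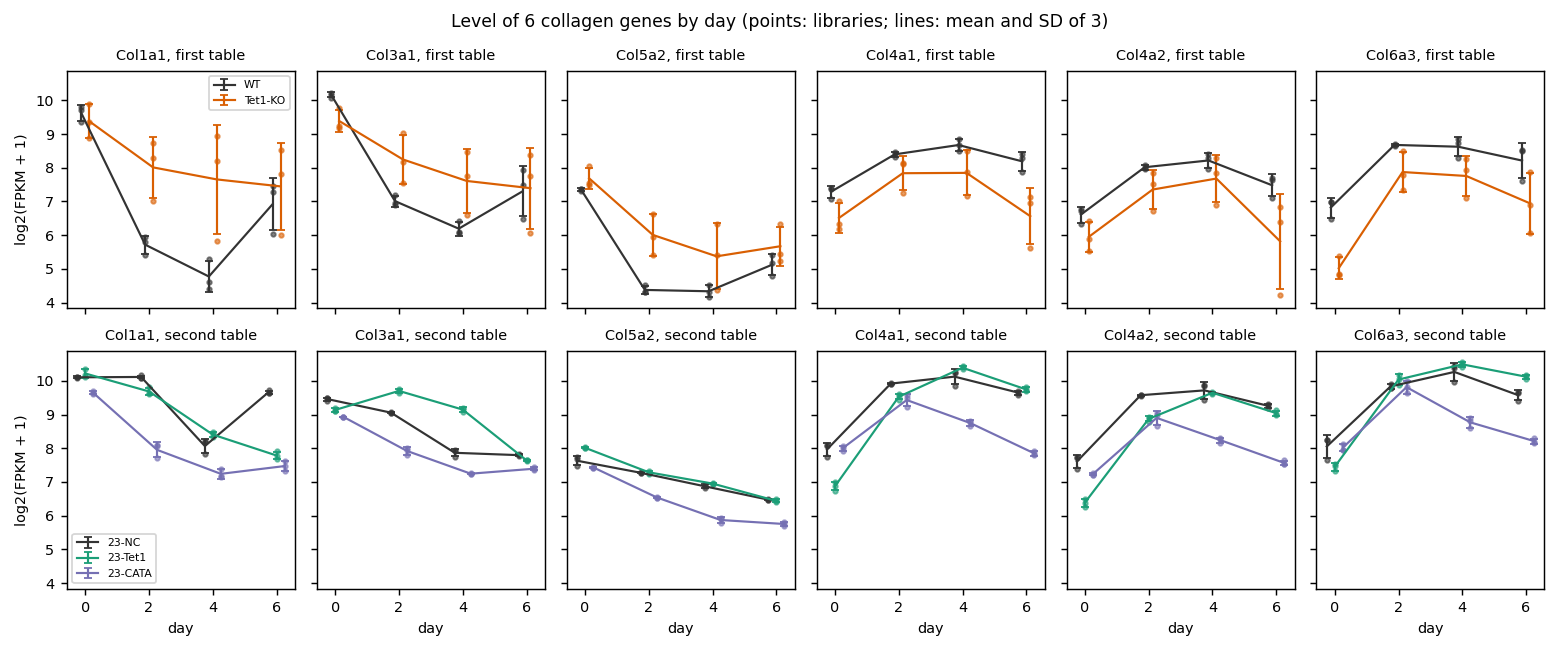
Level of Col1a1, Col3a1, Col5a2, Col4a1, Col4a2 and Col6a3 as log2(FPKM + 1) (vertical axis) by day (horizontal axis), WT and Tet1-KO above, 23-NC, 23-Tet1 and 23-CATA below; points are libraries and lines with bars are the mean and SD of 3. In WT the fibrillar genes drop between days 0 and 2 while Col4a1, Col4a2 and Col6a3 go up, and the Tet1-KO libraries spread widely in Col1a1 from day 2 on.

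Tet1-KO cells went from day 0 to day 2 with 6 collagen genes up and 13 down (7.72% of all genes were called higher and 14.8% lower), and to day 6 with 1 up and 16 down (9.55% and 36%, 45.6% in all). The split at day 6 moved with scaling, to 4 up and 13 down with quantile normalisation and 4 and 12 with median-ratio scaling. With the 2 groups alone in the fit, 0 were up and 5 down at day 6, and 431 of all genes were called instead of 5429. Of the fibrillar genes, 4 of 10 fell at day 2 and 8 of 10 at day 6, and of the 14 other collagens 8 and 7 fell. Col2a1 fell from 65.7, 55.8 and 95.7 FPKM to 4.70, 3.69 and 5.89 at day 2 (-3.55 ± 0.30), and Col11a1 from 3.52, 4.44 and 7.59 to 0.08, 0.10 and 0 (-2.39 ± 0.16). Col1a1 stood at 655, 470 and 955 FPKM at day 0 and at 425, 127 and 313 at day 2. These groups did not overlap, and the change of -1.27 ± 0.66 did not pass the test (adjusted p = 0.15). Col28a1 had the largest fall of the other collagens at day 2 (-3.61 ± 0.33). Rises included Col6a3, from 28.0, 27 and 41.0 FPKM to 218, 360 and 161 (2.95 ± 0.39, adjusted p = 4.5e-05), and Col4a1, from 79.2, 71.4 and 130 to 273, 284 and 153 (1.43 ± 0.36, adjusted p = 0.012), a call lost without replicate 2 of day 0 or of day 2. Col6a3 was the 1 gene still called higher at day 6 (2.31 ± 0.39), and there its call was lost when the 2 compared groups alone were fitted (adjusted p = 0.0738). From day 0 to day 2 the adipocyte marker sum in Tet1-KO went from 231.2 to 410.0 FPKM up to 8243 to 48540, the mesenchymal sum from 5343 to 6176 down to 1718 to 3196, and the chondrocyte sum from 108.7 to 127.7 down to 22.89 to 33.98. At day 6 these sums were 28870 to 34010, 2331 to 4730 and 24.48 to 80.62. Their part in the changes was not tested.

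Before induction, 2 of 29 collagen genes were higher and 6 lower in Tet1-KO than in WT, where 5.83% of all genes were called higher and 11% lower, 16.8% in all. The counts moved with the processing, to 3 and 12 with quantile normalisation, 4 and 5 with median-ratio scaling, 5 and 17 when the 2 groups alone were fitted, and 4 and 12 without Tet1-KO day 6 replicate 2. Over all genes 2228, 1813, 5648 and 3952 were then called, in that order, against 2002 in the main fit. Leaving out WT replicate 2 of day 0 or Tet1-KO replicate 2 of day 0 brought the collagen total from 8 to 5, with 842 and 810 of all genes called. The genes lower at day 0 included Col11a1 (-1.55 ± 0.16, adjusted p = 6.1e-07), Col27a1, a fibrillar collagen of growing cartilage, at 10.9, 9.48 and 8.03 FPKM against 23.7, 24.1 and 30.2 (-1.28 ± 0.21), and Col6a3 at 28.0, 27 and 41.0 against 87.9, 126 and 126 (-1.71 ± 0.39, adjusted p = 0.004). Col6a1 was lower by the test (-1.08 ± 0.37), a call lost without the filter and without any of 5 libraries. Col10a1, the collagen of hypertrophic cartilage, was higher (1.27 ± 0.18), at means of 1.63 and 0.16 FPKM. It reached 1 FPKM in only 4 of the 24 libraries and would not have passed the filter without the Tet1-KO day 0 libraries. Its call as higher in that group is therefore not independent of the filter. Col15a1 stood at 0.56, 0.51 and 0.57 FPKM against 4.08, 5.84 and 5.31 without passing the test (adjusted p = 0.077). Chondrocyte marker sums at day 0 were 108.7 to 127.7 FPKM in Tet1-KO against 229.1 to 254.8 in WT, though none of Sox9, Cnmd and Comp was called. Adipocyte sums were 231.2 to 410.0 against 59.8 to 187.8, and mesenchymal sums 5343 to 6176 against 5184 to 5307. The part of these 3 marker lists in the day 0 differences was not tested.

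At days 2 and 4 more collagen genes were higher in Tet1-KO: 11 against 1 lower at day 2 and 9 against 1 at day 4, where 16.2% and 9.79% of all genes were called higher and 6.76% and 6.22% lower (22.9% and 16% in all). Of the fibrillar genes 5 and 4 of 10 were higher and none lower. The groups of Col1a1 did not overlap at day 2, when Tet1-KO stood at 425, 127 and 313 FPKM against 54.1, 42.0 and 60.7 in WT (2.13 ± 0.66, adjusted p = 0.019), nor at day 4, at 292, 56.1 and 488 against 20.2, 23.4 and 38.4 (2.79 ± 0.66, adjusted p = 0.0072). Col1a2 was higher on both days (1.28 ± 0.45 and 2.10 ± 0.45). Col2a1 stood at 4.70, 3.69 and 5.89 FPKM against 0.24, 0.40 and 0.41 at day 2 (1.91 ± 0.30, adjusted p = 0.00024) and at 3.43, 1.82 and 7.43 against 0.08, 0.09 and 0.08 at day 4 (2.03 ± 0.30). Its call was kept under every alternative run on both days. Col5a2 at 98.8, 41.8 and 61.2 against 18.9, 18.7 and 21.8 was higher at day 2 (1.47 ± 0.37), and Col3a1 did not pass the test on either day (adjusted p = 0.084 and 0.062). Col16a1 was higher on both days (1.30 ± 0.42 and 1.61 ± 0.42), as were Col12a1 and Col28a1. The 1 gene lower was Col15a1, at 1.67, 2.59 and 1.85 FPKM against 12.1, 14.7 and 11.3 at day 2 (-2.34 ± 0.75, adjusted p = 0.041) and 2.07, 3.48 and 0.93 against 10.4, 13.0 and 18.3 at day 4 (-2.38 ± 0.75, adjusted p = 0.043). The calls of Col1a1, Col1a2, Col12a1 and Col15a1 at day 2 were lost without the filter and on leaving out several of the 6 libraries, and the total ran from 4 to 13 genes over those 6 at day 2 and from 2 to 16 at day 4. At day 2 the total was 4 without Tet1-KO replicate 1 and 5 without any 1 of WT replicate 1, WT replicate 2 and Tet1-KO replicate 3. At day 4 it was 16 without Tet1-KO replicate 2 (14 higher and 2 lower) and 2 to 5 without any 1 of the other 5 libraries. Calls over all genes moved too, from 2733 to between 891 and 1422 in the day 2 fits just named. At day 4 they went from 1907 to 3410 without Tet1-KO replicate 2 and to between 531 and 1091 in the others. Adipocyte marker sums were 8243 to 48540 FPKM in Tet1-KO against 50270 to 65690 in WT at day 2, and 23100 to 85680 against 88750 to 108100 at day 4, and mesenchymal sums were 1718 to 3196 against 906.1 to 1098 and 1185 to 4522 against 613.7 to 779.1. Chondrocyte sums were 22.89 to 33.98 against 7.18 to 10.84 FPKM at day 2 and 10.31 to 27.95 against 2.04 to 3.23 at day 4. Sox9 was called higher in Tet1-KO on both days, Cnmd at day 4 alone and Comp on neither day. The part of these markers in the collagen differences was not tested.

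By day 6 the comparison gave 5 genes higher and 5 lower in Tet1-KO, where 15.7% and 29.7% of all genes were called (45.4% in all). The split was 6 and 4 with quantile normalisation, 8 and 5 with median-ratio scaling and 4 and 2 without Tet1-KO day 6 replicate 2, and the total was 15 without replicate 3. With the 2 groups alone in limma no collagen gene was called, and 8 had an unadjusted p under 0.05. Over all genes that fit called 1042 instead of 5412. Col16a1, at 9.03, 9.54 and 24.1 FPKM against 5.90, 2.45 and 4.34 (1.66 ± 0.42), and Col28a1, at 6.76, 6.51 and 2.43 against 1.45, 0.51 and 1.40 (1.69 ± 0.33), were higher. Col4a1 was lower, at 123, 47.7 and 139 FPKM against 314, 234 and 336 (-1.43 ± 0.36, adjusted p = 0.0014). The Tet1-KO libraries lay below all of WT in it. Col4a2 was called lower too (-1.47 ± 0.48), a call lost without Tet1-KO replicate 2 (adjusted p = 0.053). Col1a1 overlapped between the groups, at 223, 63.3 and 368 FPKM against 175, 64.5 and 153 (0.72 ± 0.66, adjusted p = 0.53). The change from day 0 to day 6 itself differed between Tet1-KO and WT in 8 genes, 5 with a higher and 3 with a lower change in Tet1-KO (7.16% and 10.6% of all genes), and in 7 and 2 with either other scaling. Adipocyte marker sums at day 6 were 28870 to 34010 FPKM in Tet1-KO against 61340 to 65270 in WT, mesenchymal sums 2331 to 4730 against 1031 to 1633, and Cd68 was at means of 6.96 and 41.47. Their part in the day 6 differences was not tested.

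**Figure D3:**
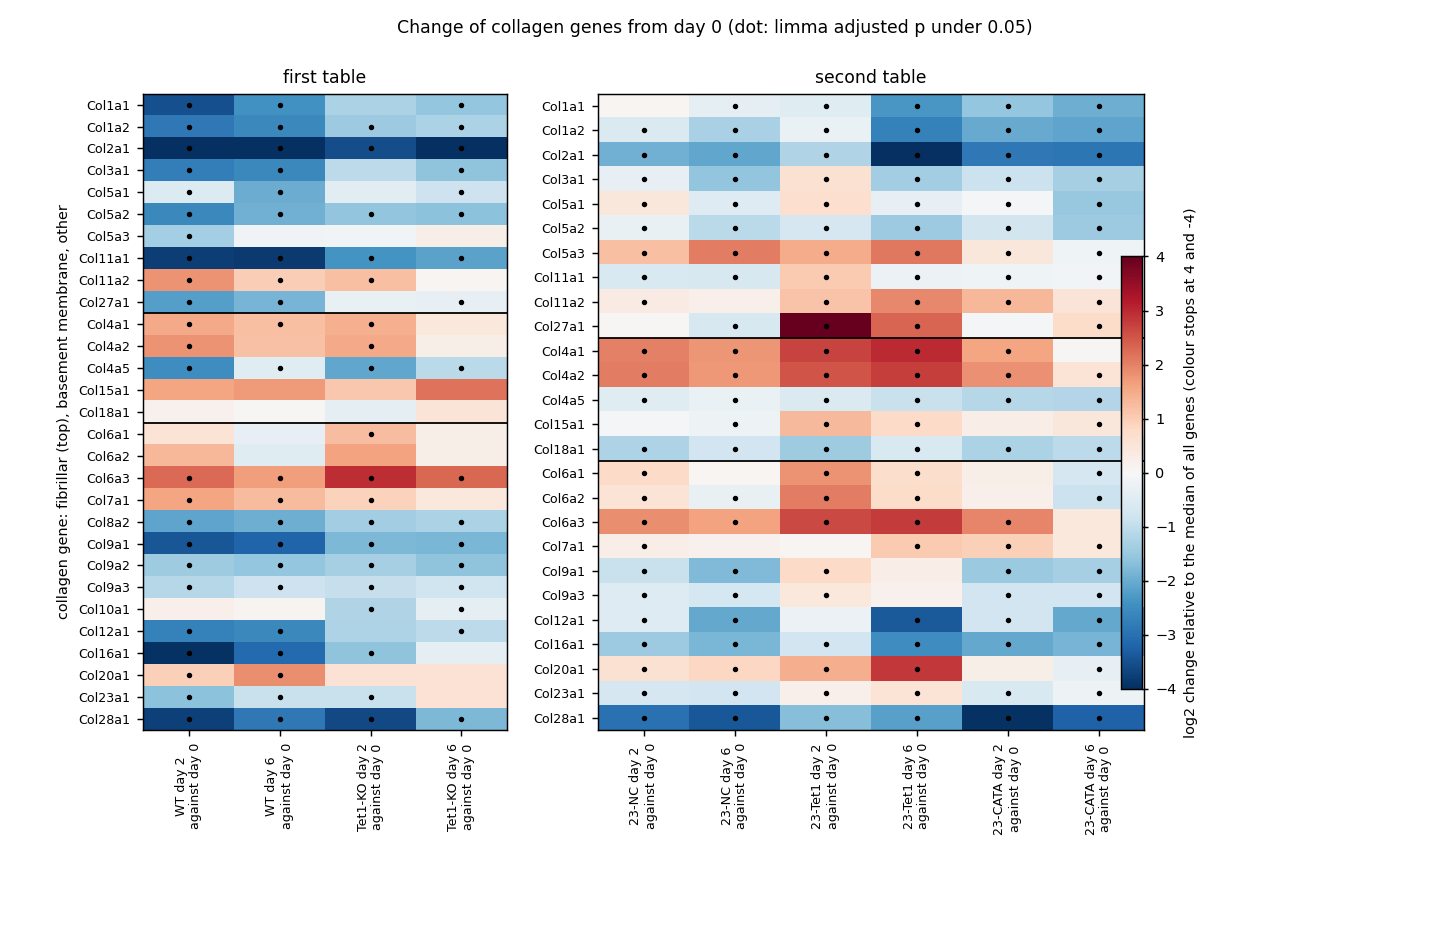
Log2 change from day 0 at days 2 and 6 (columns) for each kept collagen gene (rows, with fibrillar, basement membrane and other genes separated by lines), relative to the median of all genes, red for higher and blue for lower, with colour stopping at 4 and -4. A dot marks a limma adjusted p under 0.05; Col2a1 and Col28a1 are blue with a dot in every column, and Col27a1 is dark red in 23-Tet1 at day 2.

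In the second table the 3 libraries of a group lay close together, so that small changes passed the test. From day 0 to day 2, 10 of 26 collagen genes rose and 13 fell in 23-NC (24.4% of all genes were called higher and 35.1% lower), 16 rose and 8 fell in 23-Tet1 (28.8% and 35.6%), and 6 rose and 15 fell in 23-CATA (27% and 45.2%). The split for 23-CATA was 10 and 14 with median-ratio scaling. From day 0 to day 6 the numbers were 5 and 18 in 23-NC (31.7% and 40.5%), 12 and 12 in 23-Tet1 (32.8% and 44.7%) and 5 and 19 in 23-CATA (27.3% and 49.7%). Among the 10 fibrillar genes, 3 rose and 5 fell by day 2 in 23-NC, 6 rose and 4 fell in 23-Tet1, and 2 rose and 7 fell in 23-CATA. By day 6 the numbers were 1 and 8, 3 and 7, and 2 and 8.

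Type I collagen took a different course in each population. Col1a1 in 23-NC stood at 1113, 1111 and 1079 FPKM at day 0, 1093, 1090 and 1145 at day 2, then 288, 294 and 224 at day 4. By day 6 it was at 793, 841 and 802. It was lowest at day 4, and the change at day 6 was -0.36 ± 0.10. In 23-Tet1 it went down at each time point, from 1155, 1315 and 1113 FPKM through 789, 903 and 781 and then 342, 354 and 319 to 239, 215 and 206 (-2.32 ± 0.10 at day 6, adjusted p = 3.0e-19). In 23-CATA it was at 775, 824 and 799 at day 0, already at 270, 270 and 206 at day 2 (-1.54 ± 0.10), and at 197, 177 and 158 at day 6 (-1.95 ± 0.10). Col1a2 was highest at day 0 in all 3 populations, and by day 6 was at means of 504 ± 2.93 in 23-NC, 217 ± 12.2 in 23-Tet1 and 231 ± 17.4 FPKM in 23-CATA. Col3a1 rose in 23-Tet1 at day 2, from 556, 584 and 549 to 801, 864 and 832 FPKM (0.61 ± 0.06, adjusted p = 3.2e-10), while it fell in 23-NC (-0.34 ± 0.06) and in 23-CATA (-0.86 ± 0.06). Col2a1 fell in all 3 by day 2, from 5.94 ± 0.34 to 0.76 ± 0.06 FPKM in 23-NC, from 26.5 ± 1.97 to 10.5 ± 0.98 in 23-Tet1 and from 10.3 ± 0.96 to 0.38 ± 0.07 in 23-CATA. Col5a3 rose by day 6 in 23-NC, from 22.1, 23.6 and 23.7 to 95.1, 92.7 and 95.7 FPKM (2.06 ± 0.08), and in 23-Tet1 (2.11 ± 0.08), and was lower in 23-CATA (-0.18 ± 0.08).

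Col27a1 had the largest change of any collagen gene in the second table. In 23-Tet1 it stood at 0.62, 0.55 and 0.56 FPKM at day 0, 39.3, 40.6 and 42.8 at day 2, then 9.97, 9.14 and 9.73 at day 4. The libraries of day 6 had 6.31, 6.57 and 5.81. The rise at day 2 was 4.77 ± 0.09 (adjusted p = 1.7e-27). In 23-NC it was at 3.51, 4.07 and 3.87 FPKM at day 0 and 3.74, 4.03 and 3.46 at day 2, and in 23-CATA at 7.04, 7.54 and 6.98 and then 6.54, 6.29 and 5.69, and neither change passed the test. At day 2 it was higher in 23-Tet1 than in 23-NC by 3.05 ± 0.09, after being lower by 1.71 ± 0.09 at day 0. Col11a1 was also higher in 23-Tet1 at day 2, at 1.62, 1.62 and 1.66 FPKM against 0.13, 0.04 and 0.04 in 23-NC (1.21 ± 0.06). These were the only 3 of the 36 libraries at 1 FPKM or more. Col11a1 thus passed the filter only through the group in which it is high, and its call is not independent of that. Col2a1 was higher there as well, at 10.2, 11.6 and 9.75 against 0.71, 0.83 and 0.73 FPKM (2.62 ± 0.08). The summed chondrocyte markers stood at 94.9 to 102.8 FPKM in 23-Tet1 and 41.0 to 43.1 in 23-NC at that day, mostly Sox9. Acan was at 0.003 FPKM in both, and the part of these markers was not tested.

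Col4a1 and Col4a2 rose in all 3 populations by day 2. Col4a1 stood at 213, 270 and 269 FPKM in 23-NC at day 0, 961, 978 and 962 at day 2 (2.02 ± 0.10), then 1213, 1237 and 927 at day 4. The libraries of day 6 had 802, 771 and 837. In 23-Tet1 the day 0 libraries were lower, at 118, 126 and 106 FPKM, and rose to 696, 773 and 746 by day 2 (2.70 ± 0.10), then to 1380, 1296 and 1348 by day 4. The 23-CATA libraries went from 243, 270 and 257 to 757, 719 and 603 (1.58 ± 0.10) and were at 242, 225 and 222 at day 6, when the change from day 0 did not pass the test (0.06 ± 0.10, adjusted p = 0.14). Col4a5 fell in each population, to means of 27.4 ± 0.66 FPKM in 23-NC, 18.7 ± 0.28 in 23-Tet1 and 7.01 ± 0.65 in 23-CATA at day 6. Col18a1 fell by 1.23 ± 0.08, 1.43 ± 0.08 and 1.25 ± 0.08 by day 2 in 23-NC, 23-Tet1 and 23-CATA.

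Of the type VI chains, Col6a3 rose by day 2 in all 3 populations, from 200, 305 and 304 to 887, 964 and 890 FPKM in 23-NC (1.85 ± 0.13), from 178, 186 and 160 to 940, 1160 and 1066 in 23-Tet1 (2.63 ± 0.13) and from 247, 279 and 248 to 1029, 893 and 791 in 23-CATA (1.95 ± 0.13). Col6a1 reached 1787, 1959 and 1813 FPKM in 23-Tet1 at day 2 (1.78 ± 0.07), against 1265, 1271 and 1282 in 23-NC (0.76 ± 0.07) and 1183, 1210 and 999.8 in 23-CATA, where the change of 0.25 ± 0.07 did not pass. Col6a2 rose by 2.06 ± 0.08 in 23-Tet1 and by 0.56 ± 0.08 in 23-NC. Col28a1 fell in every population, for example from 19.5, 20.1 and 19.8 to 0.13, 0.27 and 0.26 FPKM in 23-CATA (-3.94 ± 0.08). Col20a1 rose in 23-Tet1 from 1.23, 1.03 and 1.05 FPKM at day 0 to 13.1, 13.6 and 11.8 at day 6 (2.83 ± 0.08).

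The populations already differed at day 0, where 3 of 26 collagen genes were higher and 19 lower in 23-Tet1 than in 23-NC (37.8% of all genes were called higher and 23.5% lower) and 9 were higher and 10 lower in 23-CATA (31.6% and 11.7%). For 23-CATA the split was 7 and 12 with quantile normalisation and 7 and 11 with median-ratio scaling. Col9a1, at 0.93, 0.87 and 0.68 FPKM in 23-Tet1 against 8.36, 6.92 and 8.68 (-2.39 ± 0.10), was the most strongly lower, and Col2a1 the most strongly higher (1.89 ± 0.08). The 3 chondrocyte markers that passed the filter were all lower in 23-Tet1 then, Cnmd at means of 0.017 against 9.38 FPKM, Comp at 2.86 against 11.94 and Sox9 at 73.1 against 103.5, and their part was not tested. In 23-CATA Col12a1 was lower, at 47.5, 55.0 and 48.2 FPKM against 94.4, 192 and 198 (-1.70 ± 0.19), while Col18a1 was higher, at 26.0, 28.2 and 28.7 against 13.3, 14.2 and 13.3 (0.86 ± 0.08). The adipocyte marker sum at day 0 was already 2237 to 2396 FPKM in 23-CATA, against 27.5 to 31.0 in 23-NC. Cd68 was at means of 32.3 and 5.12 FPKM. The part of the adipocyte markers and Cd68 in the 23-CATA differences was not tested. At day 2, 9 genes were higher and 9 lower in 23-Tet1 (38.7% and 25.2%). By day 4 the numbers were 15 and 1 (35% and 21.9%), and 9 of 10 fibrillar genes were higher, among them Col3a1 at 588, 537 and 575 against 241, 244 and 213 FPKM (1.2 ± 0.06) and Col1a2 at 452, 445 and 443 against 231, 241 and 182 (0.96 ± 0.08). Col15a1, at 31.2, 27.4 and 29.0 against 9.56, 8.72 and 6.51 FPKM, was higher by 1.64 ± 0.10. The calls of Col1a1, Col4a1 and Col5a1 at day 4 were lost with median-ratio scaling and without 23-NC day 4 replicate 3. At day 6, 8 were higher and 11 lower (36% and 29%), Col1a1 lower by 1.93 ± 0.10 among them. The adipocyte marker sum at day 4 was 15540 to 16400 FPKM in 23-Tet1 and 19510 to 26810 in 23-NC, and the mesenchymal sum 1274 to 1417 and 870.4 to 922.7. At day 6 the adipocyte sum was 49490 to 57340 against 10310 to 11710. The part of these markers was not tested.

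23-CATA had 6 collagen genes higher and 16 lower than 23-NC at day 2 (34.3% and 30.7% of all genes), 3 and 15 at day 4 (28.9% and 39.9%) and 7 and 15 at day 6 (38% and 36.4%). With quantile normalisation the split at day 6 was 4 and 16. Col1a1 was lower by 2.19 ± 0.10 at day 2 and by 2.21 ± 0.10 at day 6, when it stood at 197, 177 and 158 FPKM against 793, 841 and 802. Col4a1 was lower as well at day 6, at 242, 225 and 222 against 802, 771 and 837 (-1.82 ± 0.10, adjusted p = 3.0e-16), as were Col4a2 (-1.71 ± 0.10), Col4a5 (-1.84 ± 0.10) and Col5a1, at 34.9, 30.7 and 29.96 against 108, 104 and 111 (-1.74 ± 0.10). Not all basement membrane chains were lower: Col15a1, at 35.9, 33.5 and 35.2 FPKM against 15.6, 15.1 and 16.1, and Col18a1, at 10.9, 10.5 and 11.3 against 6.83, 7.32 and 7.2, were higher by 1.10 ± 0.10 and 0.54 ± 0.08, and both were higher on each of the 4 days. Col27a1 was higher by 1.97 ± 0.09 at day 6. Against 23-Tet1, day 0 gave 15 genes higher in 23-CATA with 8 lower (32.9% and 31.3%). Day 2 gave 5 and 15 (30.3% and 37.1%), day 4 gave 2 and 21 (27.6% and 46.6%), and day 6 gave 6 and 15 (31.9% and 33.8%). At day 4 all 10 fibrillar genes were lower in 23-CATA, Col3a1 by 1.74 ± 0.06 at 150, 153 and 149 against 588, 537 and 575 FPKM. Adipocyte marker sums at that day were 61820 to 68840 FPKM in 23-CATA and 15540 to 16400 in 23-Tet1. Mesenchymal sums were 959.1 to 1227 and 1274 to 1417, and the part of these markers was not tested. The comparisons with 23-NC share its libraries. The change from day 0 to day 6 was higher in 23-Tet1 than in 23-NC for 15 genes and lower for 7 (29.1% and 32.3% of all genes), and in 23-CATA higher for 4 and lower for 14 (27.5% and 36%). Adipocyte marker sums were higher in 23-CATA than in 23-NC on each day, for example 27270 to 30810 against 2648 to 2841 FPKM at day 2 and 53070 to 54450 against 10310 to 11710 at day 6, and mesenchymal sums at day 6 were 1033 to 1105 against 2432 to 2593. Their part in the collagen differences was not tested.

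**Figure D4:**
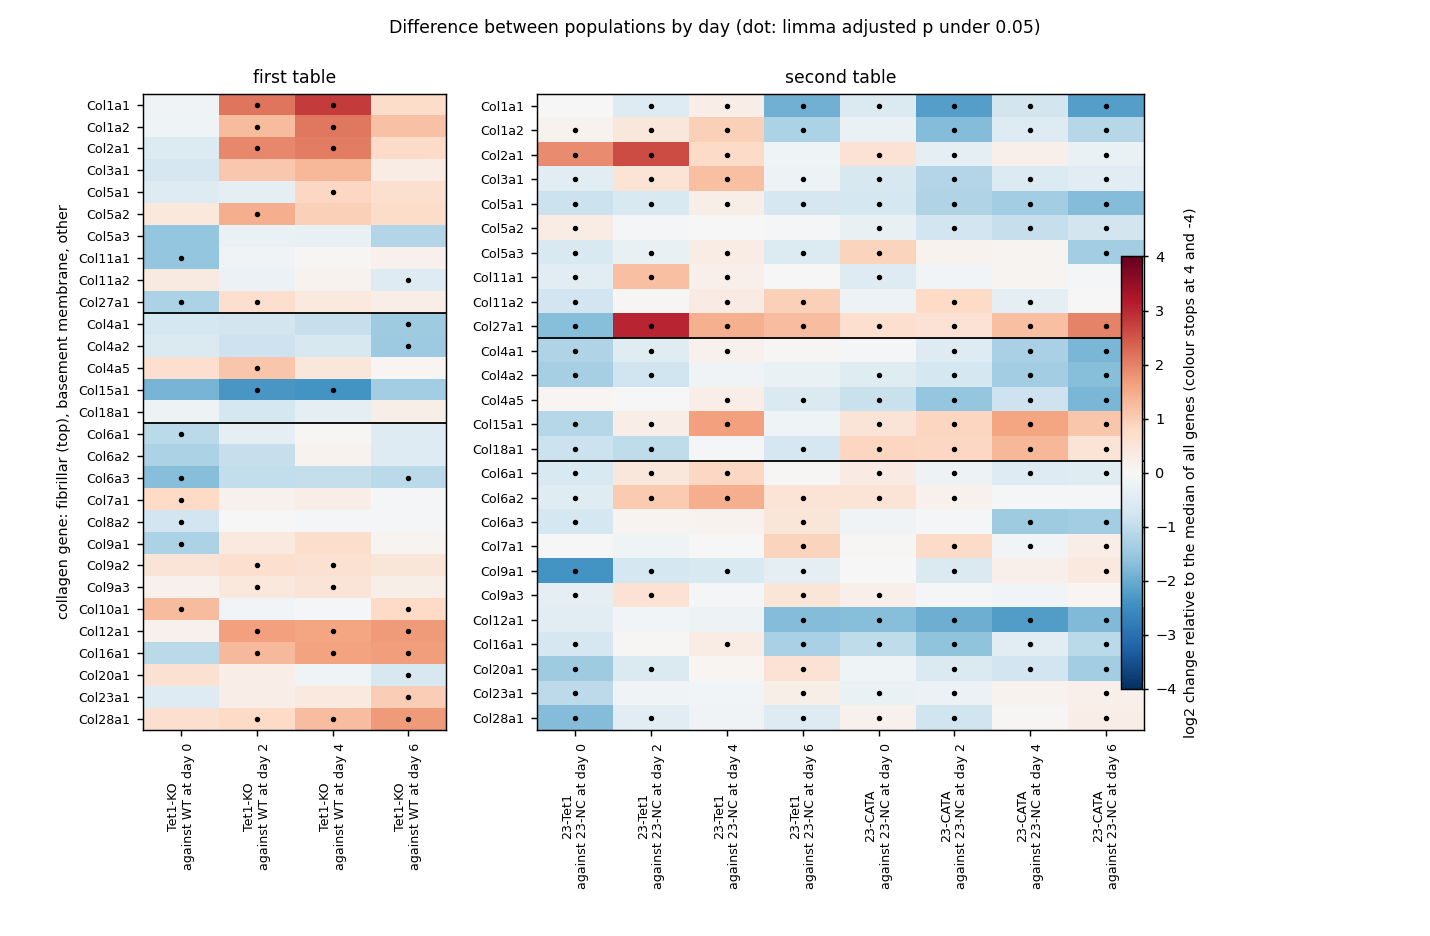
Log2 difference between populations at each day (columns) for each kept collagen gene (rows, with fibrillar, basement membrane and other genes separated by lines), relative to the median of all genes, red for higher and blue for lower in the first-named population, with colour stopping at 4 and -4. A dot marks a limma adjusted p under 0.05; the fibrillar genes of Tet1-KO with a dot at days 2 and 4 are all red, and Col4a1, Col4a2 and Col4a5 are blue in 23-CATA at day 6.

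Chains that form one protein kept different degrees of balance. The FPKM of Col4a1 divided by that of Col4a2 ran from 1.21 to 1.75 over the 36 libraries of the second table, although Col4a1 itself ranged from 106 to 1380 FPKM there. In the first table it ran from 1.01 to 2.71, with the highest value in Tet1-KO day 6 replicate 2. By comparison, Col4a1 divided by Col1a1 ran from 0.10 to 4.23 and from 0.12 to 17.9. Small shifts in the type IV ratio still separated groups, from 1.66 to 1.75 at day 0 to 1.21 to 1.23 at day 6 in 23-CATA. The chains of type I collagen join in a ratio of Col1a1 to Col1a2 that favours Col1a1 in the protein. Over WT and Tet1-KO libraries the FPKM ratio was 0.29 to 1.04, over the other libraries 0.64 to 1.66, and in 23-NC it went from 0.82 to 0.87 at day 0 to 1.58 to 1.66 at day 6. For Col6a1 over Col6a2, neighbours on chromosome 10 with 85161 bases between them, the range was 1.16 to 2.18 in the second table and 0.76 to 3.15 in the first, where WT went from 1.41 to 1.47 at day 0 to 0.83 to 0.88 at day 2. Col6a3 over Col6a1 ranged from 0.24 to 1.38 in the second table and from 0.065 to 0.74 in the first. Col3a1 and Col5a2 lie tail to tail on chromosome 1 with 24614 bases between them, and went apart in 23-Tet1 at day 2, when Col3a1 rose and Col5a2 fell (-0.68 ± 0.05).

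**Figure D5:**
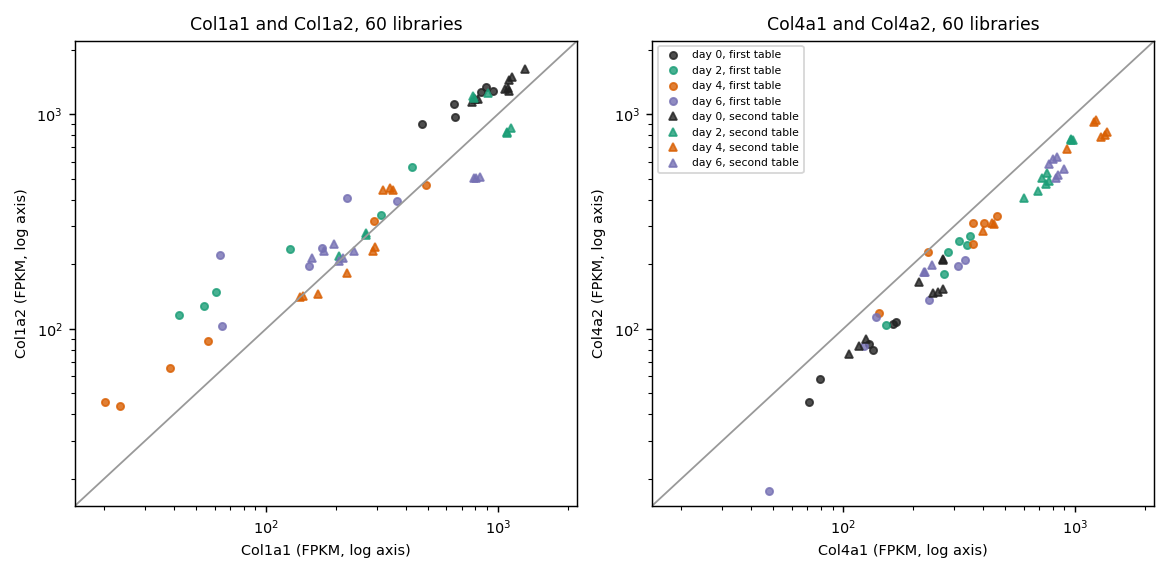
Level of Col1a2 against Col1a1 and of Col4a2 against Col4a1 in FPKM (both axes logarithmic) in the 60 libraries, coloured by day, with circles for the first table, triangles for the second and a line of equality. The type IV points run parallel to the line below it, while the type I points lie on both sides of it.

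Genes that act on collagen chains were counted from lists drawn up beside the members. They were 18 tested genes for chain modification and folding, 8 for secretion and trimming of the chain ends, 7 for breakdown and its inhibitors, 4 receptors and 5 fibril-bound proteoglycans. In WT from day 0 to day 2 no gene of these lists rose, and 11, 7, 7, 4 and 5 fell, where 43.2% of all genes fell. The list medians were -0.73, -1.46, -2.20, -1.65 and -3.91, on a scale on which the median of all genes is 0. The strongest falls per list were P4ha3, a prolyl hydroxylase subunit, at -2.92 ± 0.42, Pcolce2, which helps to trim the end of fibrillar chains, at -3.75 ± 0.35, Timp3, an inhibitor of metalloproteases, at -5.20 ± 0.56, Ddr2, a receptor for fibrillar collagen, at -3.11 ± 0.32, and Ogn, a small proteoglycan, at -4.91 ± 0.55. In Tet1-KO against WT at day 4 the same lists held 4, 4, 6, 1 and 3 genes higher and none lower, where 9.79% of all genes were higher, with medians of 0.60, 0.77, 1.85, 0.98 and 1.36. Those most strongly higher were P3h3 (1.77 ± 0.53), Pcolce (2.32 ± 0.77), Timp2 (2.93 ± 0.49), Ddr2 (1.15 ± 0.32) and Ogn (2.52 ± 0.55).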

How the data were processed

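RNA-seq libraries were made with the TruSeq RNA kit from total RNA, per the labels' protocols. The authors deposited FPKM per gene in 2 tables of 24 and 36 libraries. The submitters' processing notes name STAR 2.4.1a, RSEM and mm10. Whether FPKM were scaled further is not given in the sources used here, and the tables were kept apart. Groups came from sample titles, which differ from the genotype tag in 11 samples labelled 23-Tet1. Each column matched 1 sample, and 0 columns were left unmapped.

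Genes with 1 FPKM in at least 3 libraries of a table were tested with limma 3.58.1 (R 4.3.3) on log2(FPKM + 1), all groups of a table in 1 fit of group means with trended variance, and p was adjusted by the Benjamini-Hochberg method with a threshold of 0.05. The procedure was tested on simulated data. FPKM keep no direct record of depth, so no count test was run. Depth was only estimated, from the smallest FPKM steps of genes with a single annotated transcript. Alternatives were median-ratio scaling, quantile normalisation, a pseudocount of 0.1, no filter, a fit of the compared groups only, leaving out each library, a replicate block, and, chosen after seeing the data, a fit without Tet1-KO day 6 replicate 2. Summaries used Python 3.11.15, numpy 2.4.6, pandas 2.3.3 and matplotlib 3.10.9.

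The members and lists were chosen with earlier results of these data known. Named were 18 fixed collagen genes (Col8a1 and Col14a1 among them were not kept) and, per comparison, the 2 called members of largest rise and the 2 of largest fall with a mean of 1 FPKM or more in the higher group. Others were named after their values were seen. Promoter windows are from RefSeq (GRCm38.p6), gene positions from GENCODE M21 on GRCm38.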

Additional observations from a re-analysis of the deposited data

Results flagged for a closer look

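The change from day 0 to day 6 itself differed between populations for 48 combinations of a collagen gene and a pair of populations, by limma on the difference of the 2 changes (adjusted p under 0.05). They were 8 of 29 genes for Tet1-KO against WT, 22 of 26 for 23-Tet1 against 23-NC and 18 of 26 for 23-CATA against 23-NC. Among all genes tested, 7.16% were called higher and 10.6% lower for Tet1-KO against WT. The shares were 29.1% and 32.3% for 23-Tet1 and 27.5% and 36% for 23-CATA. The values below are differences of log2 changes, relative to the median over all genes.

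In Tet1-KO the change was higher than in WT for Col11a1 (1.70), Col16a1 (2.72), Col23a1 (1.48), Col27a1 (1.54) and Col8a2 (0.70), and lower for Col11a2 (-0.88), Col20a1 (-1.28) and Col7a1 (-0.85). The call of Col11a1 was lost with a pseudocount of 0.1 (adjusted p = 0.0712). Its mean fell from 17.64 FPKM to 0.067 in WT and from 5.18 to 0.043 in Tet1-KO by day 6.

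In 23-Tet1 the change was lower than in 23-NC for 7 genes, namely Col1a1 (-1.96), Col1a2 (-1.40), Col2a1 (-2.06), Col5a2 (-0.38), Col12a1 (-1.29), Col16a1 (-0.66) and Col4a5 (-0.65). It was higher for 15. Among them were the type IV pair Col4a1 (1.23) and Col4a2 (1.04), Col15a1 (0.96) and the type VI chains Col6a1 (0.64), Col6a2 (1.01) and Col6a3 (1.19). The cartilage-type chains Col11a1 (0.43), Col11a2 (1.70), Col9a1 (2.02), Col9a3 (0.86) and Col27a1 (2.95) were also higher, as were Col7a1 (0.88), Col20a1 (2.00), Col23a1 (1.28) and Col28a1 (1.205). Col9a1 and Col27a1 stood under 1 FPKM in 23-Tet1 at day 0, where a fall has little room on this scale. Col11a1 was under 1 FPKM in every library of these groups.

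In 23-CATA the change was lower than in 23-NC for 14 genes. The fibrillar ones were Col1a1 (-1.64), Col1a2 (-0.87), Col2a1 (-0.86), Col5a1 (-1.05), Col5a2 (-0.43) and Col5a3 (-2.29), and the basement membrane ones Col4a1 (-1.75), Col4a2 (-1.23), Col4a5 (-0.96) and Col18a1 (-0.32). The others were Col6a1 (-0.80), Col6a2 (-0.62), Col6a3 (-1.23) and Col20a1 (-1.204). It was higher for Col11a1 (0.49, under 1 FPKM in every library of these groups), Col15a1 (0.58), Col23a1 (0.49) and Col27a1 (1.31). The comparisons of 23-Tet1 and 23-CATA share the 23-NC libraries.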

How the results depend on the processing

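Of the 29 counts of collagen genes called, all stayed within 1.5 times with a pseudocount of 0.1, median-ratio scaling and the replicate block (24 genes at day 2 in WT with the replicate block, as without it); under the block 7 calls of named genes were gained and 0 lost. Replicate numbers are only names here: the correlation of deviations of same-numbered libraries ran from -0.411 to 0.383, with every pair above 0.1 in 1 of 26 comparisons. The counts that moved were those of the first table. In Tet1-KO against WT, no filter gave 6 genes at day 2 and 5 at day 4 instead of 12 and 10. Quantile normalisation gave 15 at day 0 instead of 8. The compared groups alone gave 22 at day 0, 3 at day 4 and 0 at day 6 (limma, 8 at an unadjusted p under 0.05), and 5 instead of 17 for Tet1-KO day 6 against day 0. Calls over all genes moved as well. With the compared groups alone they were 5648, 672 and 1042 at days 0, 4 and 6, where the main fit gave 2002, 1907 and 5412. For Tet1-KO day 6 against day 0 they were 431 instead of 5429. Without Tet1-KO day 6 replicate 2 in the fit there were 16 collagen genes at day 0 and 6 at day 6, with 3952 and 5181 of all genes. Leaving out 1 library gave 5 to 7 collagen genes at day 0, 4 to 13 at day 2, 2 to 16 at day 4 and 6 to 15 at day 6. Directions as fitted turned for Col18a1, Tet1-KO against WT at day 6 (-0.54 without Tet1-KO replicate 3, and up to 0.5986 without replicate 2). With quantile normalisation they turned for Col1a2 in 23-Tet1 from day 0 to day 2 (0.1663), Col4a2 in 23-CATA from day 0 to day 6 (-0.09465), Col1a2 in 23-CATA against 23-Tet1 at day 6 (-0.3072) and Col3a1 in the difference of the day 6 change between 23-CATA and 23-NC (-0.2773). With median-ratio scaling they turned for Col15a1 in 23-CATA against 23-Tet1 at day 4 (0.04645). The cause was not tested. FPKM hold no counts, so no counting interval is given.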

Other observations

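In the second table the genes that act on collagen chains differed between populations as well. In 23-Tet1 against 23-NC at day 4, 11 of 18 modification genes were higher and 3 lower (35% and 21.9% of all genes were called), with Fkbp10, a chaperone of procollagen, at 1.2 ± 0.07 and P4ha2, a prolyl hydroxylase subunit, at -0.96 ± 0.11. Of the 7 breakdown genes 5 were higher and none lower, and Mmp14, a membrane-bound collagenase, was at 392 against 117 FPKM (1.66 ± 0.07). At day 6 Mmp14 was lower, at 90.5 against 182 FPKM (-1.05 ± 0.07). In 23-CATA against 23-NC at day 2, 1 modification gene was higher and 15 lower, and of the breakdown list 1 was higher and 6 lower, where 34.3% of all genes were called higher and 30.7% lower. Mesenchymal marker sums in these libraries were 1041 to 1131 FPKM in 23-CATA and 2241 to 2342 in 23-NC, and adipocyte sums 27270 to 30810 and 2648 to 2841, and their part was not tested. Timp3 was at 21.2 against 160 FPKM (-2.88 ± 0.09), Adamts2, which trims the start of fibrillar chains, at 9.98 against 42.4 FPKM (-2.01 ± 0.10) and Ogn at 16.4 against 106 FPKM (-2.67 ± 0.13). Among the receptors Itga1, an integrin subunit for collagen, was higher in 23-CATA at day 2 (0.57 ± 0.19) and lower in 23-Tet1 at day 4 (-1.16 ± 0.19), both against 23-NC.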
